A study of Mus musculus with 5 samples.

Results

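Endothelial cells of mouse tibialis anterior muscle, 5 days after the muscle was injured with notexin, were described across genes. The cells were those that carried the authors' label "Endothelial" in the day 5 annotation, 100 of the 2164 annotated day 5 cells and of the 17923 annotated cells of the whole series. Notexin is a snake venom phospholipase that destroys muscle fibres and is followed by regrowth of the fibres and of their capillaries. The day 5 library was labelled C57Bl/6, female and 4 months old. The other libraries were of the same strain and muscle. Day 7 after notexin was labelled male and 4 months old, day 2 after notexin female and 7 months old, and day 0, which was uninjured, female and 4 months old, with 2 sequencing runs in 1 matrix. Muscles were digested with collagenase D and dispase II, red cells were lysed, live cells were sorted with PI and Calcein-AM, and 10x 3' v2 droplet libraries were made, so cells that did not survive digestion, lysis or sorting were not measured. The number of mice behind a library was not stated in the sources used here, and with 1 library per day, day cannot be told apart from mouse, library or depth, nor from age at day 2 or sex at day 7.

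Endothelial cells line blood vessels. They hold together through VE-cadherin and claudin junctions, respond to VEGF and angiopoietins through receptor tyrosine kinases, and take arterial, capillary or venous forms under Notch signalling and blood flow. In muscle, capillary endothelium also carries fatty acids from plasma lipoproteins into the fibres and rests on a basement membrane of type IV collagen, laminin, nidogen and perlecan. During regrowth, endothelial cells rebuild that basement membrane and sprout in response to VEGF.

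The 100 cells held 172583 UMIs (counted molecules), with a median of 1433 UMIs per cell (1005 to 6003), 826 genes per cell and a mitochondrial share of 3.21%. The 2064 other annotated day 5 cells held 5814118 UMIs with a median of 2062.5 per cell. Endothelial cells of days 0, 2 and 7 numbered 1089, 58 and 520, with medians of 2203, 6688.5 and 4281 UMIs per cell. Of the 100 barcodes, 2 also occurred in the day 7 library, where neither was labelled endothelial, and 0 occurred at day 0 or day 2. Levels are sums over cells in counts per 1000000 UMIs (cpm), with exact 95% Poisson intervals, and ratios are log2 ratios of these levels, each followed by its exact 95% binomial (Clopper-Pearson) interval. All intervals cover counting error only, and with 1 library per day no test between groups could be made. The authors' labels were derived from the same expression data, so levels across labels are a description of the labelled cells.

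The 5 genes given as markers of these cells were all higher in them than in the pooled other day 5 cells. Cdh5, which encodes VE-cadherin, the adhesion protein of endothelial junctions, had 1570.3 cpm (1389 to 1769) in endothelial cells and 7.40 cpm in the other day 5 cells, a log2 ratio of 7.73 (7.26 to 8.23). Flt1, a VEGF receptor that also acts as a decoy, had 968 cpm (826 to 1126) against 5.16 cpm, a log2 ratio of 7.55 (6.98 to 8.16). Adgrf5, an adhesion G protein-coupled receptor, had 846 cpm (714 to 995) against 3.44 cpm, a log2 ratio of 7.94 (7.26 to 8.70). For these 3 genes no other day 5 label of at least 50 cells was above 13.1 cpm, so each label's level lay far below that of the endothelial cells. Mcam, the adhesion molecule CD146, had 493 cpm (393 to 609) against 5.50 cpm, and its next level was 31.5 cpm in the 40 MuSCs (muscle stem cells) and progenitors. Col15a1, a collagen of the basement membrane zone, was the marker least restricted to the endothelial label: it had 962 cpm (821 to 1119.8) against 283 cpm in the other cells pooled, and 546 cpm (519.7 to 574) in FAPs, the fibro-adipogenic progenitors of the stroma.

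Cell by cell, each marker was found in 49 to 86 of the 100 cells. Cdh5 had a UMI in 86 cells, Flt1 in 79, Adgrf5 in 77, Col15a1 in 61 and Mcam in 49. Labels differ in depth (median 1433 UMIs in endothelial cells, 2785 in FAPs and 1561.5 in NK cells), so cells were also thinned to 500 UMIs each. Thinned in this way, Cdh5 was found in 52% (41.8 to 62.1) of endothelial cells, against 0.121% of FAPs and 0.758% of NK cells. Col15a1 was found in 37% (27.6 to 47.2) of endothelial cells, against 21.5% (18.7 to 24.5) of FAPs. Of a broader list of 24 genes typical of endothelium in general, all 24 were at least 2-fold higher, with a median log2 ratio of 7.35, and a cell held a median of 12 (5 to 19) of them without thinning. After thinning, 99 of the 100 cells held at least 2 of these 24 genes, against 15 of the 828 FAPs (1.81%) and 5 of the 432 anti-inflammatory macrophages (1.16%). Because the label rests on the same data, these counts describe the labelled cells and are no independent check of the label.

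Upstream sequences are shown for 4 genes that were almost restricted to the endothelial label, a marker (Flt1), a guidance receptor (Robo4), a junction protein (Cldn5) and an angiopoietin pathway receptor (Tie1), because promoters of endothelial genes are known to carry sites for ETS transcription factors, which bind around the core GGAA. Each is the 250 bases before the annotated start, from RefSeq on build GRCm38.p6: chr5:147726012-147726261 on the minus strand, chr9:37401722-37401971 on the plus strand, chr16:18776597-18776846 on the plus strand and chr4:118489850-118490099 on the minus strand. They are written 5′ to 3′ in the direction of transcription, and capitals mark AGGAAG, which contains that core, or its reverse complement CTTCCT.
Flt1: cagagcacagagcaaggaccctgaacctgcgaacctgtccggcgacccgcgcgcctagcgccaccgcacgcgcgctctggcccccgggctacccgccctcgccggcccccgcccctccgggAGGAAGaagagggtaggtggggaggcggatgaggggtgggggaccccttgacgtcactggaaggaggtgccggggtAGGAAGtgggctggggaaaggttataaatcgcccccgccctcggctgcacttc
Robo4: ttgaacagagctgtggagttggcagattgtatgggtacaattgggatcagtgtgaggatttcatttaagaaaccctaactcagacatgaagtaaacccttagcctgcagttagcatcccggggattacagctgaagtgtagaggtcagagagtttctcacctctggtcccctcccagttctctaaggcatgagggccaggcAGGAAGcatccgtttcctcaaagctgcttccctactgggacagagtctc
Cldn5: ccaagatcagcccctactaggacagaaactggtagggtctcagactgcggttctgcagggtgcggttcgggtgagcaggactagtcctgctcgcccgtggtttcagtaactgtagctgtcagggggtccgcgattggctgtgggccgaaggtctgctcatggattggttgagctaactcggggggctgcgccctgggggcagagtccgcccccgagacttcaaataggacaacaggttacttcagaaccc
Tie1: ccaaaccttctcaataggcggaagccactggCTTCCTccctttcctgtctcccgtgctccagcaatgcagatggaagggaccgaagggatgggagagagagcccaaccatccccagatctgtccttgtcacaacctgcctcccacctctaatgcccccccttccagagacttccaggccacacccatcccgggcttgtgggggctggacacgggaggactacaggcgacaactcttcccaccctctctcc
The Flt1 window held 2 matches, the Robo4 and Tie1 windows 1 each and the Cldn5 window 0. Of the 23 endothelial genes named by level here, 13 had at least 1 window in the RefSeq table, 18 windows in all, and 9 of these 18 windows (50%) held the motif on either strand, against 9686 of all 32851 windows (29.5%). A match is a description of letters only, and binding was not measured.

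Across the day 5 library, 3413 genes were measured, meaning that a gene had at least 10 UMIs in the endothelial cells or would have had them there at the level of the other cells. Of these, 879 (25.8%) were at least 2-fold higher in endothelial cells than in the other day 5 cells and 560 (16.4%) at least 2-fold lower, with a median log2 ratio of 0.31. When ratios were centred on that median the counts were 685 higher and 676 lower. The 20 genes with the largest ratios, by a fixed rule, ran from a log2 ratio of 7.58 for Aplnr to 10.86 for Sox17. They were transcription factors, receptors, junction and surface proteins, and proteins of lipid and vessel function, described in that order. Outside these groups the 20 included Apold1, an early response gene of endothelium (34 UMIs in endothelial cells against 4 elsewhere), Tinagl1, a matricellular protein (45 against 7), the membrane-associated Palmd (30 against 5) and the predicted gene Gm12002 (21 against 2).

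Among transcription factors, the largest ratios were those of Sox17, which specifies arterial identity, and Dach1, a transcriptional cofactor, followed by Sox18, a relative of Sox17. Sox17 had 55 UMIs or 319 cpm (240.1 to 415) in endothelial cells against 1 UMI in the other 2064 cells, a log2 ratio of 10.86 (8.32 to 16.18). Sox18 also had 55 UMIs in endothelial cells, against 5 UMIs elsewhere, a log2 ratio of 8.53 (7.22 to 10.21). Dach1 had 29 UMIs against 2 elsewhere, a log2 ratio of 8.93 (6.95 to 12.04), and Bcl6b, a zinc finger repressor, had 42 against 6. Among the wider list of 19 endothelial transcription factors in the table, all 16 that were measured were higher, with a median log2 ratio of 4.34. Erg, an ETS factor that maintains endothelial identity, had 17 UMIs against 0 in the other cells, a log2 ratio of at least 7.58 when the pooled others are given a floor of 3 counts. The list also included the blood and vessel factors Tal1 (6.81, 4.85 to 9.31), Gata2 (6.35, 5.01 to 7.87), Sox7 (6.75, 5.91 to 7.66) and Epas1 (5.54, 5.12 to 5.97), the hypoxia-inducible factor HIF-2α. The lowest ratio among the 16 was that of Foxo1 (1.19, 0.29 to 1.97), a brake on endothelial growth that many cell types express.

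Among receptors, 8 of the 9 measured genes of the VEGF and angiopoietin list were higher in endothelial cells and 1 was lower, with a median log2 ratio of 3.63. Tie1, the orphan receptor that works with Tek, had 307 cpm (230.0 to 402) against 5 UMIs elsewhere, a log2 ratio of 8.48 (7.17 to 10.16). Kdr, the main signalling VEGF receptor, had 1165 cpm (1009 to 1337) in endothelial cells against 15.7 cpm in the other cells, a log2 ratio of 6.22 (5.85 to 6.59). Tek, the angiopoietin receptor, was less restricted, with 255 cpm (185 to 342) against 35.6 cpm, and its level in FAPs was 65.5 cpm. The receptors thus stood above the other labels while their main ligand did not: Vegfa had 1 UMI in the 100 cells, or 5.79 cpm, against 63.5 cpm in the other day 5 cells. Aplnr, the apelin receptor of sprouting and venous endothelium, had 34 UMIs in endothelial cells against 6 elsewhere, and Robo4, an endothelial guidance receptor that stabilises vessels, had 24 against 2.

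Every one of the 15 measured junction and adhesion genes was higher in endothelial cells, with a median log2 ratio of 4.20. Cldn5, the tight junction claudin of endothelium, had 771 cpm (645 to 913) against 2.06 cpm, a log2 ratio of 8.54 (7.69 to 9.53). Podxl, a sialomucin of the luminal surface, had 701 cpm (582 to 838) against 2.75 cpm, a log2 ratio of 7.99 (7.24 to 8.85). Mmrn2, a matrix protein that binds VEGF at endothelial surfaces, had 40 UMIs in endothelial cells against 5 elsewhere. At the other end of the list, Pecam1 (CD31) had 956 cpm (816 to 1114) against 103 cpm (3.22, 2.96 to 3.47), and its highest level in another label of at least 50 cells was 140.3 cpm in anti-inflammatory macrophages. The integrin subunit Itgb1 had the smallest ratio of the 15, at 1.10 (0.77 to 1.42).

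Genes of capillary lipid handling were higher in the endothelial cells, all but Lpl and Slc16a1 by at least 2-fold among those measured. Of the 14 measured genes of the capillary and lipid transport list, 12 were higher and 0 lower than in the other day 5 cells, with a median log2 ratio of 6.01. Fabp4, a fatty acid carrier of the cytoplasm, had 21022 cpm (20343 to 21717) against 132 cpm, and after thinning it was found in 99% (94.6 to 99.97) of endothelial cells against 4.11% of FAPs. Gpihbp1, which holds lipoprotein lipase on the capillary lumen, had 1269 cpm (1106 to 1449) against 5.33 cpm, a log2 ratio of 7.89 (7.35 to 8.49). The enzyme itself was not higher: Lpl had 284 cpm (210.0 to 375) in endothelial cells and 313 cpm in the other cells, a log2 ratio of -0.14 (-0.58 to 0.27). Cd36, a fatty acid translocase, had 1848 cpm (1651 to 2063) against 33 cpm. Aqp7, a glycerol channel, had 59 UMIs against 6 elsewhere, and Aqp1, a water channel, had 3077 cpm (2821 to 3350.0) against 16.3 cpm. Tcf15 and Meox2, which act together as transcription factors of fatty acid uptake in muscle and heart endothelium, had log2 ratios of 7.32 (6.66 to 8.04) and 1.80 (1.28 to 2.29). C1qtnf9, a secreted relative of adiponectin, had 47 UMIs against 6 elsewhere.

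Flow and vessel tone genes were also higher, with 9 of 11 measured genes higher, 0 lower and a median log2 ratio of 2.57. Nos3, the endothelial nitric oxide synthase, had 30 UMIs or 174 cpm (117 to 248) in endothelial cells against 5 UMIs in the other cells, a log2 ratio of 7.66 (6.28 to 9.38). Ednrb, the endothelin B receptor, had 16 UMIs and a log2 ratio of 7.49 (5.68 to 9.91). Cav1, the coat protein of caveolae, had 1987 cpm (1783 to 2209) against 66.4 cpm. The flow-induced factor Klf2 was shared more widely, with 1217 cpm (1058 to 1393) against 383 cpm, and Klf4 did not reach 2-fold at -0.26 (-0.60 to 0.07). In the coagulation list 2 of 6 measured genes were higher and 1 lower. Vwf, the platelet adhesion factor stored by endothelium, had 22 UMIs in 13 cells and a log2 ratio of 4.95 (4.05 to 5.85), and Thbd, the thrombin receptor thrombomodulin, had 1.22 (0.72 to 1.68). Plaur, the urokinase receptor, was the lower gene, with 4 UMIs and a log2 ratio of -1.5 (-3.38 to -0.13).

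Notch and BMP pathway genes were mostly higher. In the Notch list 8 of 9 measured genes were higher and 0 lower, with a median log2 ratio of 3.71. The receptors Notch4 (6.15, 4.94 to 7.48) and Notch1 (2.64, 2.14 to 3.10) and the ligands Dll4 (5.53, 4.08 to 7.05), Dll1 (5.52, 4.30 to 6.79) and Jag1 (2.28, 1.48 to 3.0) all passed 2-fold, and the shared nuclear partner Rbpj did not, at -0.85 (-1.99 to 0.08). In the BMP and TGF-beta list 7 of 10 measured genes were higher and 2 lower, with a median of 1.48. Id1, a target of BMP signalling, had 562 cpm (456 to 686) against 26.1 cpm, and the co-receptor Eng had 249 cpm (180.3 to 336) against 28.4 cpm. Tgfbr2, the TGF-beta type II receptor, was lower, with 86.9 cpm against 254 cpm, and so was Id2, with 197 cpm against 447 cpm.

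Basement membrane genes were shared with the stroma. Of 17 measured genes 8 were higher and 2 lower than in the other day 5 cells, with a median log2 ratio of 0.67 against 0.31 over all measured genes. Col4a1, a chain of type IV collagen, had 2949 cpm (2699 to 3217) in endothelial cells against 919.6 cpm (885 to 955) in FAPs, and Col4a2, the partner chain, had 962 cpm (821 to 1119.8) against 292 cpm in FAPs. Hspg2, which encodes perlecan, had 1136 cpm (982 to 1306) against 905 cpm in FAPs. Lama5, a laminin chain of mature vessel walls, had 16 UMIs and a log2 ratio of 6.27 (4.91 to 7.79) over the other cells. The linker Nid1 was the reverse, with 255 cpm (185 to 342) in endothelial cells against 1086 cpm in FAPs, and Sparc, a collagen-binding protein, had 3019 cpm against 7003 cpm in FAPs. Plod2, a collagen lysyl hydroxylase, was the gene of the list with the lowest ratio, -2.58 (-4.86 to -1.03). FAP marker genes were found in endothelial cells too, at a summed 2822 cpm over 10 genes against 56619.7 cpm in FAPs. Of their 487 UMIs in endothelial cells, 243 were of Ly6a, found in 85 of the 100 cells, so the sum rests largely on 1 gene. The part of FAP RNA in the basement membrane levels was not tested.

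**Figure D1:**
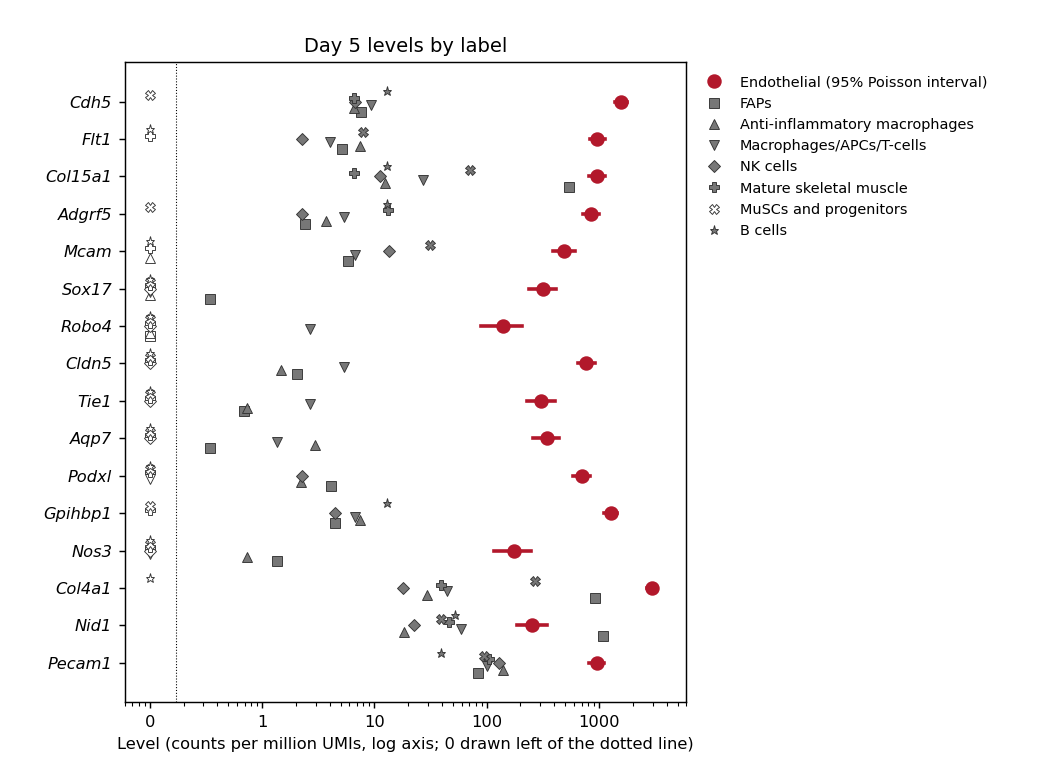
Levels of 16 genes in the 8 day 5 labels, in cpm on a log axis, with endothelial cells in red with 95% Poisson intervals and the other labels in grey, and labels at 0 drawn left of the dotted line. For Cdh5, Flt1, Adgrf5, Cldn5 and Gpihbp1 the endothelial point lies far right of every other label, whereas Col15a1, Col4a1 and Nid1 are shared with FAPs, and Nid1 is higher in FAPs (1086 cpm) than in endothelial cells (255 cpm).

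Lists that are not particular to endothelium lay closer to the other cells, apart from MHC class II. Of 13 measured MHC class I genes, which present peptides to T cells, 2 were higher and 0 lower (median 0.44). All 6 measured MHC class II genes were lower than in the pooled other cells (median -4.09). Class II genes summed to 527 cpm in endothelial cells, 46234 cpm in anti-inflammatory macrophages and 33137 cpm in B cells. The other labels ran from 341 cpm in mature skeletal muscle to 1523 cpm in the label that joins macrophages, antigen-presenting cells and T cells. Among 11 measured interferon response genes 4 were higher and 2 lower: Ifit2 (2.70, 1.68 to 3.61) and Rsad2 (2.00, 1.47 to 2.48), both antiviral effectors, had the largest ratios, and Ifi27l2a (-1.14, -1.5 to -0.80) and the chemokine Cxcl10 (-1.06, -1.80 to -0.41) the smallest. Of 18 genes that digestion is known to raise, 2 were higher and 1 lower, with a median of 0.04 that is below 0 once centred on 0.31. The 2 higher ones were the heat shock genes Hspa1a, with 2723 cpm (2483 to 2981) against 929 cpm, and Hspa1b, with 1113 cpm (961 to 1281) against 536 cpm. The 5 genes named as lowest in endothelial cells were Igfbp6, Ogn, Col6a1, C3 and Ccl11, all secreted products whose highest label was the FAPs. Igfbp6, an IGF-binding protein, had 2 UMIs (11.6 cpm) in endothelial cells against 1016 cpm in the other cells, a log2 ratio of -6.45 (-9.50 to -4.60), and each of the other 4 had 1 UMI against 321 (Ccl11) to 456 cpm (Ogn). A count of 0 was raised to a floor of 3 counts in this ranking. A gene at 0 thus ranked as less low than one with 1 or 2 UMIs and the same level elsewhere. Genes absent from endothelial cells can therefore be missing from these 5, and from the smallest ratios between days below.

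Within the 100 cells, several genes typical of arterial, venous or sprouting endothelium were each found in few cells. The arterial genes Sema3g, a semaphorin, and Gja4, a gap junction connexin, had UMIs in 9 and 5 cells, and 3 cells held both. Sema3g shared 6 of its 9 cells with Fbln5, an elastic fibre protein found in 15 cells, and 4 with Stmn2, a microtubule regulator found in 16. Vwf was found in 13 cells and Lrg1, a glycoprotein of venous and activated endothelium, in 10, and 5 cells held both. In contrast, 0 cells held both Sema3g and Lrg1, although 2 of the 9 cells with Sema3g also held Vwf. As lists, set against the other day 5 cells, arterial genes had 8 of 9 measured genes higher, sprouting genes 9 of 10 and venous and activated genes 4 of 7, with medians of 4.34, 5.19 and 3.82. With 9 and 10 cells and shallow libraries, these counts describe the cells and are not a test of separate classes.

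At least 1 gene of the sprouting list had a UMI in 88 of the 100 cells, and at least 2 genes in 61, without thinning. Other labels held these genes too, with at least 1 in 373 of 828 FAPs and 256 of 432 anti-inflammatory macrophages. After thinning to 500 UMIs, 48 endothelial cells held at least 1 and 19 at least 2. The thinned counts were 94 and 5 in FAPs and 77 and 8 in anti-inflammatory macrophages. Some single genes were found in few cells. Apln, the apelin peptide of tip cells, had UMIs in 9 cells, of which 8 also held Gpihbp1 and all 9 also held Col4a1, genes found in 74 and 87 of the 100 cells. The cells with Apln were deeper, with a median of 1977 UMIs against 1336 in the cells without it, and held a median of 16 against 11 general endothelial genes, so nothing is drawn from these shared counts. Plvap, a component of fenestral and caveolar diaphragms, was found in 15 cells, 9 of them with Gpihbp1. The activated gene Selp, a leukocyte adhesion selectin, was found in 1 cell with 3 UMIs in all. Markers of lymphatic endothelium were nearly absent: Prox1, Mmrn1 and Reln had 0 UMIs, which allows up to 17.4 cpm each, and Lyve1 and Ccl21a were not in the day 5 table.

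Marker lists of other cell types were mostly lower in endothelial cells than in the pooled other day 5 cells, by at least 2-fold in 9 of 10 measured FAP, 10 of 10 macrophage, 6 of 6 NK and T, 8 of 8 mature muscle and 1 of 1 MuSC genes. Of all measured genes 16.4% were lower. The pooled cells are the cell types that such markers define, and the labels rest on the same data. These counts therefore describe the labels and are no check that the 100 cells are free of other cell types. Of 4 measured pericyte and smooth muscle genes 2 were higher, Rgs5 (4.73, 4.10 to 5.35) and Tagln (2.88, 2.00 to 3.68), and 2 lower, Des and Pdgfrb, which had 0 UMIs. The red cell, platelet, tenocyte and glial lists had 1, 1, 1 and 0 measured genes. Cells differed most in a mixed group of genes. After thinning to 500 UMIs, the Fano factor (variance over mean across cells, near 1 when counts vary only by sampling) was largest for Actb (5.95), Hbb-bs (5), Malat1 (4.72), Ccl5 (4.65), Ccl3 (3.83), Hspa1a (3.80), Rgs5 (3.75), Tmcc1 (3.38) and Cpe (3.38). The cytoskeletal actin Actb, the nuclear RNA Malat1 and Hspa1a were found in 96, 100 and 57 of the 100 cells before thinning, and the other 6 in 3 to 22 cells. Hbb-bs, Tmcc1 and Cpe rest on 5 thinned UMIs each, and after thinning to 1000 UMIs Rgs5 and Cpe stood at ranks 29 and 48. Ccl5, a chemokine of NK and T cells, was found in 22 cells, and the granule genes Gzma and Nkg7 in 6 and 5 cells, with 5 cells holding Ccl5 and Gzma and 5 holding Ccl5 and Nkg7. After thinning, Ccl5 was found in 7% (2.86 to 13.9) of endothelial cells against 73.9% of NK cells. The cells with Ccl5 held a median of 11.5 of the 24 general endothelial genes, against 12 in the cells without it. Of the 143 UMIs of the NK and T marker list, 98 (68.5%) came from 3 cells. These 3 cells had 38, 33 and 27 UMIs of the list, each over 5 genes. They held 5, 11 and 16 general endothelial genes, with 2425, 1693 and 4479 UMIs in all, against a median of 1433 UMIs over the 100 cells. The median over the 22 cells with Ccl5 does not describe these 3. Rgs5, a marker of pericytes, had 41 UMIs in 10 cells, 31.7% of them from 1 cell, and those 10 cells held a median of 14 general endothelial genes against 11 in the others. Of the pericyte and smooth muscle markers, Pdgfrb, Acta2, Kcnj8, Cspg4 and Des had 0 UMIs. No doublet caller was run, and whether these cells are doublets or carry free RNA was not tested.

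Cell cycle RNA was concentrated in few cells. The 20 genes of the cell cycle list had 101 UMIs (585 cpm) in the 100 cells, and 59 cells had 0. A single cell, also the deepest at 6003 UMIs, held 23 of these UMIs over 11 genes, and the next cell held 8. Without it the list stood at 468 cpm. In the other day 5 labels of at least 50 cells the same list ran from 127 cpm in FAPs to 1963 cpm in the label that joins macrophages, antigen-presenting cells and T cells.

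**Figure D2:**
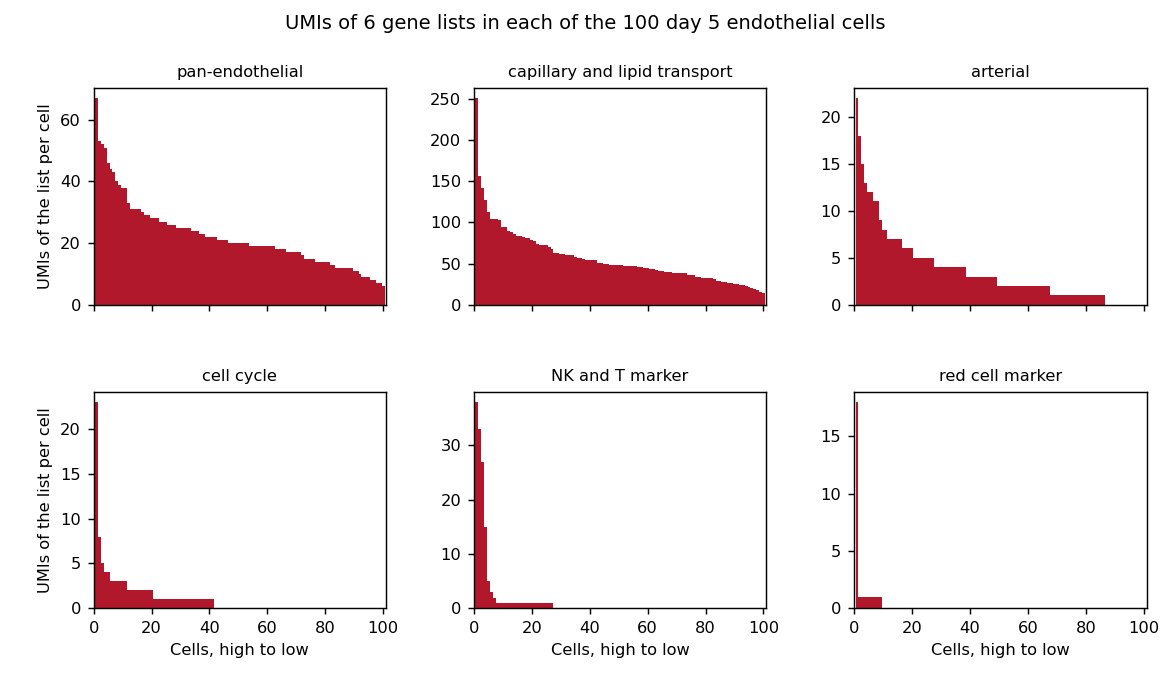
UMIs of 6 gene lists in each of the 100 day 5 endothelial cells, with cells ordered high to low within each panel. General endothelial and capillary genes were found in every cell and arterial genes in 86, whereas cell cycle genes were led by 1 cell with 23 UMIs, NK and T markers by a few cells (largest 38) and red cell genes by 1 cell with 18 of 26 UMIs.

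Endothelial cells of day 5 were next set beside those of day 7 and day 0. Both comparisons use the same 100 day 5 cells, so their values are not independent. Against day 7, 3392 genes were measured, of which 653 (19.3%) were at least 2-fold higher at day 5 and 509 (15%) at least 2-fold lower, with a median log2 ratio of 0.02. Against day 0, 3411 genes were measured, with 460 (13.5%) higher and 516 (15.1%) lower and a median of -0.02. FAPs of the same libraries were treated alike for comparison. Of their 11020 genes measured against day 7, 13.6% were higher and 9.47% lower at day 5, and of 10973 against day 0, 10.9% were higher and 9.29% lower. Of the 3286 genes measured in both cell types against day 7, 624 were higher at day 5 in endothelial cells and 377 in FAPs, and 493 and 257 were lower. Of the 3322 against day 0, 444 and 252 were higher and 496 and 300 lower. Calls were thus more frequent in endothelial cells over all genes. Where FAPs of the same libraries differ in the same way, the endothelial difference cannot be told apart from a difference between libraries, so FAP values stand beside the endothelial ones.

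Receptors of vessel growth stood higher at day 5 than at day 7, with 3 of 8 measured VEGF and angiopoietin genes past 2-fold, 0 lower, and a median log2 ratio of 0.92. Kdr had 765, 204, 1165 and 447 cpm in endothelial cells of days 0, 2, 5 and 7, a log2 ratio of 1.38 (1.16 to 1.60) for day 5 over day 7. Tek had 175, 110.5, 255 and 89.3 cpm on those days (1.51, 1.02 to 1.98, over day 7), and Plxnd1, a semaphorin receptor that restrains sprouting, had 161, 89.5, 446 and 186 cpm (1.26, 0.90 to 1.61, over day 7). For all 3 genes the day 5 level was the highest of the 4 days. Against day 0, 1 of 9 genes, Plxnd1, was past 2-fold (1.47, 1.11 to 1.82) and the list median was 0.14. The first 2 of these genes differed in FAPs of the same libraries too, by more than in endothelial cells: over day 7, Kdr had 2.32 (1.75 to 2.89) and Tek 2.06 (1.77 to 2.36) in FAPs, so their endothelial differences cannot be told apart from a difference between the libraries. Plxnd1 had 0.60 (0.19 to 1.00) over day 7 and 1.56 (1.13 to 1.98) over day 0 in FAPs. Over the 7 genes measured in both cell types the median for day 5 over day 7 was 0.95 in endothelial cells and 0.34 in FAPs.

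The Notch genes Notch1 and Jag1 were also highest at day 5 of the 4 days. The whole Notch list summed to 1337, 661, 1338 and 782 cpm in endothelial cells of days 0, 2, 5 and 7, so days 5 and 0 were alike. Against day 7, 4 of 8 measured Notch genes were higher at day 5 and 0 lower, with a median log2 ratio of 0.98. The receptor Notch1 had 131, 85.7, 261 and 83.8 cpm in endothelial cells of days 0, 2, 5 and 7, and the ligand Jag1 had 44.8, 30.5, 104 and 22.2 cpm; their ratios over day 7 were 1.64 (1.14 to 2.10) and 2.24 (1.39 to 3.01). The ligand Dll1 (1.65, 0.75 to 2.46) and the target gene Hes1 (1.03, 0.59 to 1.44) were also past 2-fold, but the tip cell ligand Dll4 was not, at -0.11 (-1.14 to 0.76). Of the 3 Notch genes measured in FAPs as well, 3 were higher at day 5 in endothelial cells and 0 in FAPs, with medians of 1.64 and 0.51. Over all 3286 genes measured in both, 624 were higher in endothelial cells and 377 in FAPs. These 3 genes are a small part of the list, and the difference between the cell types was not tested. Against day 0 the list was divided: Jag1 was higher (1.22, 0.42 to 1.93), Dll4 was lower (-1.10, -2.12 to -0.25), and the median of 9 genes was 0.18.

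Endothelial transcription factors had 6 of 17 measured genes higher at day 5 than at day 7 and 0 lower, with a median of 0.84. Sox7 had 169, 81.9, 296 and 86.9 cpm in endothelial cells of days 0, 2, 5 and 7, a log2 ratio of 1.77 (1.30 to 2.20) over day 7, and Sox18 had 284, 95.3, 319 and 106 cpm (1.58, 1.14 to 2.00). The ETS factor Ets1 had 327, 196, 626 and 268 cpm (1.22, 0.92 to 1.51), and Ets2 (1.40, 1.05 to 1.75), Tal1 (1.34, 0.22 to 2.31) and Epas1 (1.11, 0.82 to 1.40) were the others past 2-fold. Sox17, which had the largest ratio of day 5 among genes with at least 20 UMIs in at least 10 endothelial cells, had a log2 ratio between these days of 0.17 (-0.25 to 0.56). In FAPs 2 of the 11 factors measured in both were higher over day 7, and both are among those named: Sox7 had 1.70 (0.35 to 3.0) and Ets2 1.75 (1.42 to 2.09) in FAPs, so their endothelial differences cannot be told apart from a difference between the libraries. Ets1 had 0.42 (0.11 to 0.72) in FAPs. The medians of the 11 were 0.84 in endothelial cells and 0.41 in FAPs. Against day 0, 1 of 18 was higher and 2 lower, with a median of 0.15.

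Basement membrane genes were higher at day 5 mainly in the comparison with day 0. Against day 0, 9 of 16 measured genes were higher and 0 lower, with a median log2 ratio of 1.06, and against day 7, 4 were higher and 1 lower, with a median of 0.29, a share close to that over all genes. Col15a1 had 82.5, 227, 962 and 401 cpm in endothelial cells of days 0, 2, 5 and 7, a log2 ratio of 3.54 (3.25 to 3.83) over day 0 and 1.26 (1.02 to 1.5) over day 7. Col4a1 had 592, 621, 2949 and 969.5 cpm, and Hspg2 had 343, 189, 1136 and 379 cpm on those days. The other genes past 2-fold over day 0 included the collagen Col18a1 (3.24, 2.04 to 4.35), the linkers Nid2 (1.67, 0.77 to 2.47) and Nid1 (1.09, 0.61 to 1.55) and the laminin chains Lama5 (1.39, 0.53 to 2.15) and Lamb1 (1.13, 0.47 to 1.74). FAPs shared part of this: of 15 genes measured in both, 8 were higher in endothelial cells and 4 in FAPs over day 0, with medians of 1.03 and 0.83, and the 4 in FAPs were Lamb1 (1.34, 1.22 to 1.45), Hspg2 (1.32, 1.25 to 1.38), Col4a1 (1.25, 1.18 to 1.31) and Nid1 (1.03, 0.97 to 1.09). Over day 7 the same 15 genes had 4 higher in endothelial cells and 0 in FAPs, with medians of 0.29 and -0.19. Hspg2 in FAPs had 905 cpm at day 5 against 499 cpm at day 7, and Col4a1 had 919.6 against 597 cpm.

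**Figure D3:**
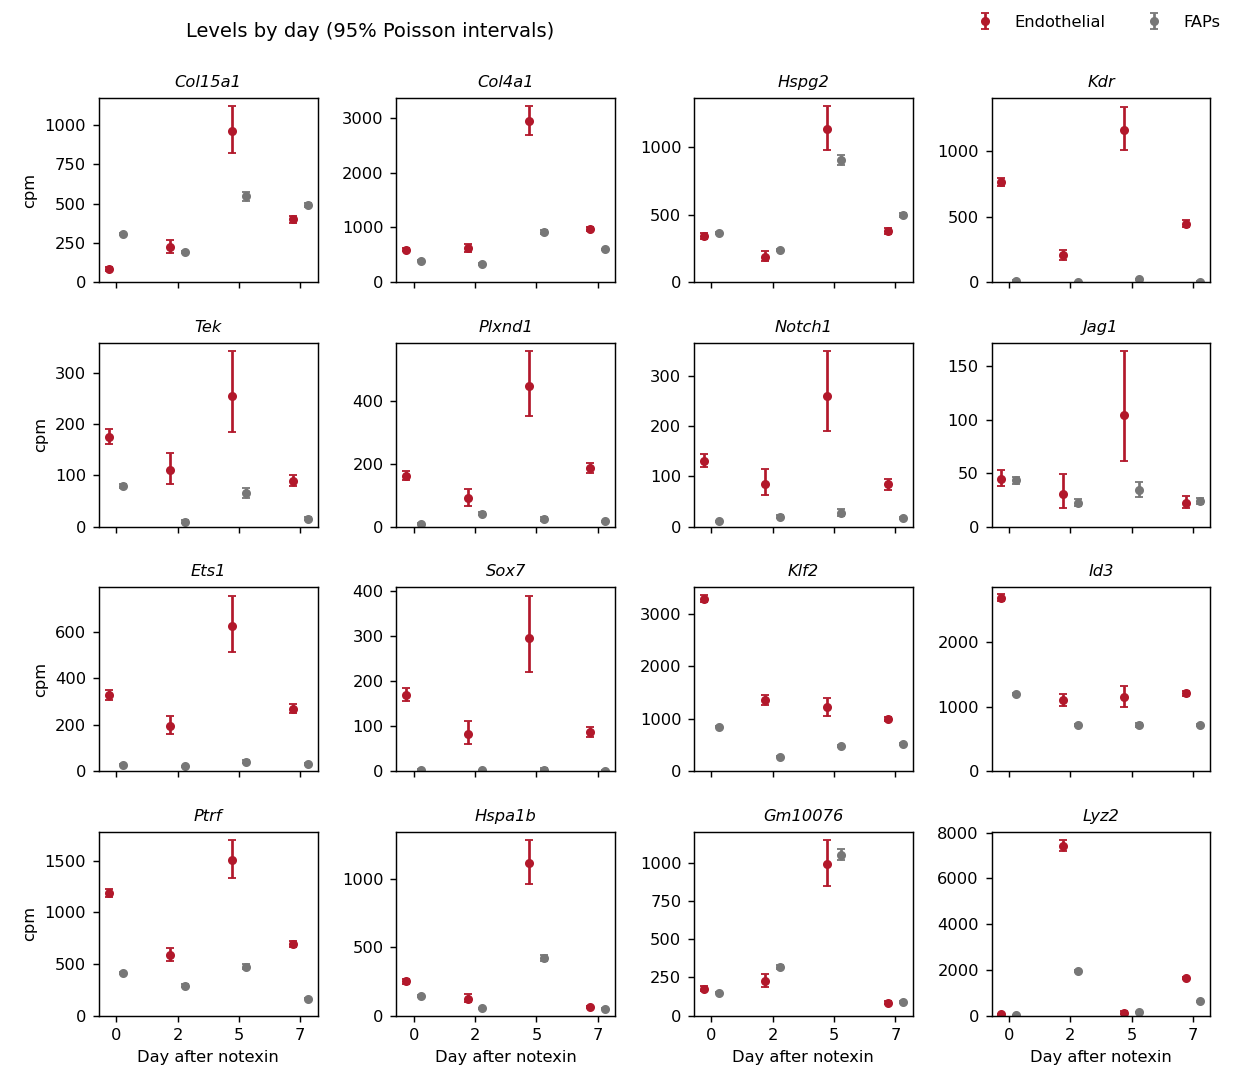
Levels in cpm of 16 genes in endothelial cells (red) and FAPs (grey) at days 0, 2, 5 and 7, with 95% Poisson intervals. Col15a1, Col4a1, Kdr, Plxnd1, Notch1, Ets1 and Sox7 are highest at day 5 in endothelial cells, whereas Gm10076 has 991 cpm in endothelial cells and 1055 cpm in FAPs at day 5, and Lyz2 is highest at day 2 in both cell types.

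Junction, flow and BMP genes differed gene by gene. Against day 7, 5 of 15 measured junction genes were higher and 0 lower (median 0.46), led by Podxl (1.51, 1.22 to 1.79) and F11r (1.38, 0.87 to 1.85), a tight junction adhesion molecule. FAPs had 2 of 14 junction genes higher, with a median of 0.27, and the 2 were Podxl (1.20, 0.05 to 2.28) and Pecam1 (2.35, 2.08 to 2.63), which had 0.14 in endothelial cells. Both directions were seen in the flow list, where Nos3 (1.46, 0.86 to 2.03), Ednrb (1.28, 0.42 to 2.04) and the caveolar protein Ptrf (1.12, 0.93 to 1.31) were higher over day 7 and the endocytic protein Ehd4 was lower (-1.37, -2.22 to -0.64). Ptrf was also higher in FAPs, at 472 cpm at day 5 against 165 cpm at day 7. Against day 0, Nos3 was higher (1.01, 0.42 to 1.56) while Klf2 (-1.44, -1.64 to -1.24), Klf4 (-1.04, -1.38 to -0.72) and the vasoconstrictor peptide Edn1 (-1.55, -3.18 to -0.31) were lower. Klf2 had 3294, 1358, 1217 and 998 cpm in endothelial cells of days 0, 2, 5 and 7, so that all 3 injured days lay below the uninjured one. FAPs also had 3 of the 10 flow genes measured in both lower over day 0, with a median of -0.45 against -0.21 in endothelial cells, and ratios of -0.83 (-0.91 to -0.75) for Klf2, -0.31 (-0.38 to -0.25) for Klf4 and -1.40 (-2.09 to -0.78) for Edn1. The digestion stress list summed to 20745, 9575, 14781 and 8517 cpm in endothelial cells of days 0, 2, 5 and 7. Of its 18 genes 4 were lower and 1 higher at day 5 than at day 0, against 15.1% lower and 13.5% higher over all measured genes. With 18 genes, little can be read from these counts. The part of digestion in the differences between days was not tested.

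BMP pathway genes were divided against day 0, with 3 of 10 measured genes higher and 4 lower. The intracellular mediators Smad5 (1.47, 0.71 to 2.15) and Smad1 (1.02, 0.52 to 1.48) and the receptor Bmpr2 (1.16, 0.57 to 1.70) were higher. The receptor Acvrl1 (-1.24, -2.12 to -0.49), the co-receptor Eng (-1.11, -1.58 to -0.67) and the targets Id3 (-1.22, -1.43 to -1.02) and Id1 (-1.06, -1.36 to -0.77) were lower. In FAPs 0 of these 10 genes were higher and 1 lower over day 0, with medians of -0.26 in endothelial cells and 0.26 in FAPs; the lower gene in FAPs was Id1 (-1.15, -1.45 to -0.86). Id3 had 2690.2, 1097, 1153 and 1204 cpm in endothelial cells of days 0, 2, 5 and 7, again with the 3 injured days below day 0.

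**Figure D4:**
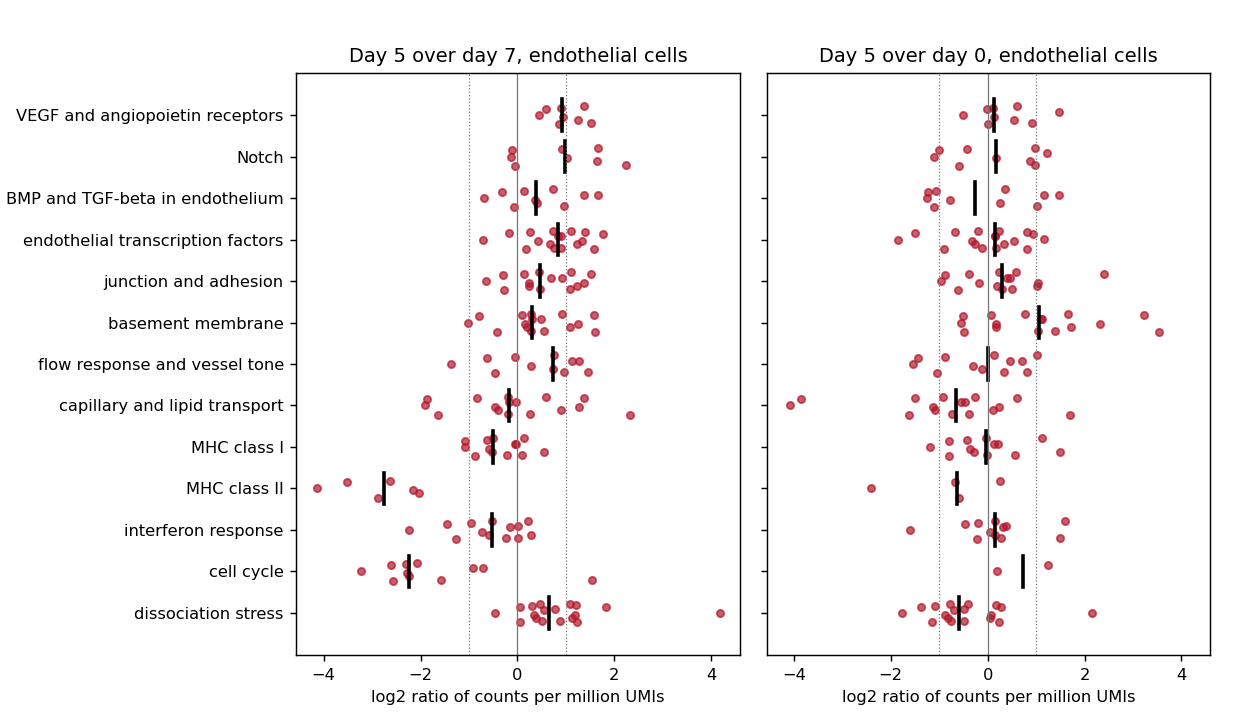
Each point is a measured gene of a list, placed by its log2 ratio of cpm in endothelial cells for day 5 over day 7 (left) and day 5 over day 0 (right), with the list median as a black bar and 2-fold as dotted lines. VEGF receptor, Notch and transcription factor medians lie at 0.92, 0.98 and 0.84 over day 7, MHC class II and cell cycle medians at -2.75 and -2.23, and the basement membrane median at 1.06 over day 0.

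MHC class II, macrophage and cell cycle genes were lower at day 5 than at day 7. All 6 measured MHC class II genes were lower, with a median log2 ratio of -2.75, and Cd74, the invariant chain, had -4.15 (-4.93 to -3.47). FAPs also had 6 of 6 lower, with a median of -1.96 and a ratio of -2.55 (-2.72 to -2.39) for Cd74. Of 8 measured macrophage markers 7 were lower in endothelial cells and 8 in FAPs, with medians of -3.14 and -2.57. Their summed level in endothelial cells was 176, 12429, 655 and 4293 cpm at days 0, 2, 5 and 7, with Adgre1 at 0 at day 5, and MHC class II genes summed to 1110.2, 1635, 527 and 4310.4 cpm on those days. The part of macrophage RNA in the MHC class II difference was not tested. The cell cycle list had 8 of 11 measured genes lower and 1 higher, with a median of -2.23 against -0.49 in FAPs. Cdk1, the mitotic kinase, had -3.23 (-6.28 to -1.36) and Top2a, the topoisomerase of replicating DNA, -2.58 (-5.63 to -0.71), whereas Pcna, the replication clamp, was the higher gene (1.54, 0.97 to 2.07). At day 5 Cdk1 had 2 UMIs, both in 1 cell, Top2a had 2 UMIs in 2 cells and Pcna had 34 UMIs in 24 cells. In the whole list 5 genes had 0 UMIs at day 5, and any of these that was measured has a ratio set by the floor of 3 counts. FAPs differed in the same directions over day 7, with -1.80 (-2.78 to -0.96) for Cdk1, -1.86 (-4.19 to -0.22) for Top2a and 1.57 (1.26 to 1.87) for Pcna. The list stood at a summed 264, 592, 585 and 1653 cpm in endothelial cells of days 0, 2, 5 and 7.

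Capillary genes were divided between days. Against day 7, 3 of 16 measured capillary genes were higher and 3 lower, shares close to those over all genes. Slc16a1, a lactate transporter, had 2.32 (1.14 to 3.37) and Aqp7 1.28 (0.86 to 1.68), whereas Fabp5, a fatty acid carrier, had -1.87 (-2.19 to -1.56) and Timp4, a protease inhibitor, -1.90 (-3.23 to -0.85). In FAPs Slc16a1 had 2.05 (1.75 to 2.36) and Fabp5 -1.34 (-1.71 to -0.999) over day 7. Against day 0, 1 of 16 capillary genes was higher in endothelial cells, Slc16a1 (1.71, 0.57 to 2.69), and 6 were lower, with a median of -0.65. The lower genes included Timp4 (-3.86, -5.17 to -2.81), Ly6c1, a surface antigen (-1.62, -1.83 to -1.41), Tcf15 (-1.49, -1.78 to -1.22) and Rgcc, a regulator of the cell cycle (-1.14, -1.39 to -0.89). FAPs had 10 of the same 16 genes lower over day 0, with a median of -1.39, so the lower capillary levels cannot be told apart from a difference between the libraries. FAPs held little of this RNA, a summed 1628 cpm at day 5 against 32726 cpm in endothelial cells. Of 20 general endothelial genes measured in both over day 0, 14 were lower in FAPs and 2 in endothelial cells, with medians of -1.43 and -0.30. The part of free endothelial RNA in the FAP values was not tested. Among general endothelial genes Icam2, a leukocyte adhesion ligand, had 415, 385, 179.6 and 484 cpm in endothelial cells of days 0, 2, 5 and 7, and Ecscr, a surface regulator of VEGF signalling, had 480.2, 543, 267 and 613 cpm. Both were lowest at day 5. Over day 7, 4 of the 24 general endothelial genes were higher and 2 lower, shares below the 19.3% and 15% of all measured genes. The list summed to 13568, 9398, 12869 and 11495 cpm on the 4 days. Interferon response genes against day 0 are set beside those of FAPs. Of 12 measured in both, 2 were higher in endothelial cells and 10 in FAPs, with medians of 0.15 and 1.52; the difference between the cell types was not tested. Ifi27l2a (1.59, 1.21 to 1.96) and Cxcl10 (1.5, 0.72 to 2.20) were the higher genes in endothelial cells, against 1.58 (1.51 to 1.65) and 1.98 (1.86 to 2.09) in FAPs, and Ifit3 (-1.60, -3.05 to -0.46) the lower one.

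The genes with the largest ratios over day 7 were mostly near-copies of other genes. Gm10126, Gm10263, Gm10076, Rpl36-ps3 and Rbm8a2 resemble other expressed genes so closely that reads may be split between copies, and their values, log2 ratios of 3.34 (Rpl36-ps3) to 4.52 (Gm10126), are uncertain. Gm10076 had 176, 225, 991 and 84.2 cpm in endothelial cells of days 0, 2, 5 and 7, and in FAPs 1055 cpm at day 5 against 89.7 cpm at day 7. The heat shock gene Hspa1b had 4.18 (3.88 to 4.48), and in FAPs 419 cpm at day 5 against 50.9 cpm at day 7. Digestion stress genes as a list had 7 of 18 higher over day 7 in endothelial cells and 4 in FAPs. Wdr89, a WD repeat protein, had 3.24 (2.95 to 3.53), against 3.32 (3.21 to 3.43) in FAPs, and Hbb-bs, a haemoglobin chain, had 20 UMIs of which 75% came from 1 cell. The genes with the smallest ratios were largely macrophage genes: the complement chains C1qc (-4.71, -7.75 to -2.85), C1qa (-4.57, -6.85 to -3.02) and C1qb (-3.96, -5.41 to -2.84), Cd74, the lysozyme Lyz2 (-3.75, -4.45 to -3.14) and the lysosomal reductase Ifi30 (-3.69, -9.00 to -1.20). Lyz2 had 122 cpm at day 5 against 1639 cpm at day 7 in endothelial cells and 154 against 619.7 cpm in FAPs. The remaining ones were the chaperone partner Fkbp4 (-3.95, -9.26 to -1.46) and Tax1bp3, a PDZ protein, with 3 UMIs at day 5 against 674 at day 7, and 64.1 against 132 cpm in FAPs.

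Against day 0, Sema3f had the largest ratio. This class 3 semaphorin, a secreted guidance cue that binds neuropilin receptors, had 179.6 cpm (122 to 255) at day 5 against 9.02 cpm at day 0, a log2 ratio of 4.32 (3.53 to 5.11), and 3.43 cpm in FAPs of day 5. The other genes named were Lrg1 (3.79, 2.87 to 4.69), Col15a1, the matrix protease Adamts4 (2.90, 2.11 to 3.64), the mitochondrial leucyl-tRNA synthetase Lars2 (2.44, 1.91 to 2.95) and the uncertain Gm10263, Gm10126 and Gm10076. In FAPs the ratios over day 0 were 1.28 (0.05 to 2.41) for Sema3f, 2.21 (1.07 to 3.31) for Lrg1, 1.19 (0.97 to 1.41) for Adamts4 and 2.19 to 2.80 for the 3 uncertain genes. Lrg1 had 20 UMIs in 10 cells at day 5, so its level rests on few cells. The smallest ratios were those of the haemoglobin chains Hba-a1 (-7.89, -13.19 to -5.41), Hba-a2 (-5.42, -7.30 to -4.06), Hbb-bt (-6.12, -11.43 to -3.64) and Hbb-bs (-4.57, -5.29 to -3.95), and of stromal genes, namely Igfbp6 (-5.65, -8.69 to -3.79), Ccl11 (-4.96, -10.26 to -2.47), Nbl1 (-4.92, -10.23 to -2.44) and C3 (-4.88, -10.18 to -2.39). Igfbp6 (-1.25, -1.28 to -1.21), Ccl11 (-1.31, -1.38 to -1.24) and Nbl1 (-1.71, -1.80 to -1.62) were lower in FAPs as well. These are genes of red cells and FAPs: the 4 haemoglobin chains were lower in FAPs as well, and FAP markers summed to 11727, 2595, 2822 and 3271 cpm in endothelial cells of days 0, 2, 5 and 7, with 7 of 9 measured FAP markers lower at day 5 than at day 0. Ly6a held 243 of the 487 UMIs of the FAP markers in endothelial cells at day 5. Free RNA of other cells in each library was not tested as a part of these ratios.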

How the data were processed

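Single cells of tibialis anterior were measured with 10x 3' v2 libraries, per the labels' protocols. Seurat 2.3.4, Cell Ranger 2, the build mm10 and R 3.6.2 are listed, with no role or order, per the submitters' processing notes. The deposited values used are raw UMI counts of each gene in each barcode, and a listed gene has UMIs in 3 or more barcodes of its table. The deposited normalized values are the natural log of 1 plus 10000 times count over cell total, reproduced from the counts to within 6.22e-15. They were otherwise used only in an alternative setting for list medians against the other day 5 cells. The deposited metadata give the mitochondrial share as a fraction, and the authors' cell labels. The injury day and number columns of the metadata, 8 in all, were not used, and days come from the sample labels. Any filter on cells made by the authors was kept as deposited, 13 day 5 barcodes without a label were left out of the main values, and no doublet was removed.

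UMIs were summed over the cells of a label and day with Python 3.11.15, numpy 2.4.6, pandas 2.3.3 and scipy 1.17.1, and matplotlib 3.10.9 drew the figures. Genes are given by symbol, without positions. A gene counted as measured from 10 UMIs, as higher or lower from 2-fold, and a group at 0 was given a floor of 3 counts. Counts of 1 or 2 were left as they were, so rankings of smallest ratios can leave out genes at 0. Comparisons between days used genes listed in both tables. Levels are shares of a cell group's UMIs, so RNA amounts per cell were not compared. The calculation of ratios was checked on simulated counts that varied by counting error only. Of 200 genes changed 4-fold among 14680, 99.5% were recovered in the comparison with other day 5 cells, and 2.84% of unchanged measured genes were called. The changed genes had at least 20 expected UMIs. Spread between cells or libraries was not simulated, so the check says nothing about it. Cells were thinned to 500 UMIs (seed 1) for shares and Fano factors, which left out no endothelial cell.

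Named genes were the 5 given markers; the 20 with the largest ratio to other day 5 cells among genes with at least 20 UMIs in at least 10 endothelial cells and a level above every other label of at least 50 cells; the 5 with the smallest ratio there among genes of at least 100 cpm; the 8 largest and 8 smallest ratios to days 7 and 0, with at least 20 UMIs in 5 cells, and, where higher at day 5, a level above 50% of that in every other day 5 label of at least 50 cells; the 10 largest Fano factors, of which 1 is not reported here; and members of the 29 lists (342 genes, 17 not in the day 5 table) with the largest or smallest ratios or highest levels. Mitochondrial and sex-specific genes were left out. Members and lists were chosen with earlier results of these data known, some genes stand in several lists, and the pairs of genes counted within cells, the FAP values and 3 alternatives were added after the data were seen.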

Additional observations from a re-analysis of the deposited data

Results flagged for a closer look

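Endothelial genes also appeared outside the labelled cells. The 13 day 5 barcodes without an authors' label held 37 UMIs of the 24 general endothelial genes, spread over 7 barcodes with at most 9 in one. Of the 136011 UMIs of these barcodes this is 272 cpm, above the 22.1 cpm that a count of 0 would allow, and below the 12869 cpm of the same genes in the 100 labelled cells. These barcodes had a median of 1385 UMIs (1047 to 27493) and entered no comparison.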

How the results depend on the processing

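No paired analysis was possible because only day 0 has numbered samples, which share 1 matrix, and every other day has 1 library. Counts of genes at least 2-fold higher and lower depended on the filter and on the UMIs kept. Against the other day 5 cells (879 and 560), no low-count filter gave 2834 and 1387, a minimum of 20 UMIs 434 and 292, and thinning to 500 UMIs 313 and 173. Against day 7 (653 and 509), the same settings gave 2570 and 1362, 289 and 254, and 205 and 156. Against day 0 (460 and 516), they gave 2135 and 1467, 207 and 260, and 162 and 163. Leaving out the 90 cells with at least 2 genes of another cell type's list left 10 cells and 12292 UMIs. The FAP list alone, which includes Ly6a, had at least 2 genes in 78 cells. This setting gave 50 and 67 genes against the other day 5 cells, 53 and 57 against day 7 and 37 and 40 against day 0. With so few UMIs, fewer genes are measured by construction. Other scalings, weighting cells equally and leaving out the 10 deepest cells kept the counts within 1.5 times. Of 3 alternatives chosen after seeing the data, 1 reversed a value: without the 21 cells holding at least 3 macrophage, NK and T or mature muscle genes, the median of the 2 measured pericyte genes over day 0 was -0.0022 in place of 1.24, and the cause was not tested. Over all list medians recomputed, 73 of 317 moved against the other day 5 cells, 14 of 228 against day 7 and 17 of 228 against day 0. The 317 include differences of the deposited natural log values, an unlike unit to the log2 ratios they were set beside. Shares of cells with a UMI moved for all 5 given markers at 1000 UMIs and without thinning. Of the 10 largest Fano factors, 2 left the first 10 ranks at 1000 UMIs. Depth limits what can be said of genes with fewer than 10 UMIs in the 100 cells.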
